A study of Mus musculus with 2 samples.

Results

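The genes described here are 9 members of the poly(ADP-ribose) polymerase (PARP) family, Parp1, Parp2, Parp3, Parp8, Parp9, Parp10, Parp11, Parp12 and Parp14, together with Dtx3l, the ubiquitin ligase that works as a partner of Parp9. They were chosen by name, with earlier results of the same arrays known, from the 20659 mouse gene symbols to which the array probes could be matched. All 10 members had a probe, 11 probes in all, and every one of the 11 was well above background on both arrays and none was saturated. The members were compared between 2 one-colour Agilent mouse arrays of RAW246.1 cells, a cultured line that the labels describe as macrophages. The PBS group was the mock treatment and held 1 array; the miR-122 group was given a synthetic form of miR-122, the abundant microRNA of the liver, at a stated 5 μg/mL, and also held 1 array. No genotype, time of treatment or number of pooled cultures was stated for either group. The treatment text names miR-122 for both samples, and the title of the miR-122 sample reads as though the microRNA had been omitted. Directions therefore rest on its source name and description, which no gene of the array checks. Both arrays were scanned together at different positions, so position and treatment cannot be told apart. The extraction text names only RIPA buffer, although the sample type is total RNA.

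PARP enzymes use NAD+ to attach ADP-ribose to proteins and nucleic acids. Parp1, Parp2 and Parp3 are switched on by DNA breaks and help recruit repair factors, and Parp1 and Parp2 build long chains of ADP-ribose. Most other members add single ADP-ribose units. Parp9, Parp10, Parp11, Parp12, Parp14 and Dtx3l are known as genes induced by interferon in macrophages and other cells, where several of their products limit viral replication or shape cytokine responses. These 6 are called the interferon-linked members and Parp1, Parp2 and Parp3 the DNA-repair members. Parp8, a less studied enzyme, was placed in neither group.

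All 6 interferon-linked members were higher on the miR-122 array by 2.47-fold to 5.09-fold, whereas Parp1 was 1.5-fold lower and Parp2 was 1.06-fold lower. Parp3 stood apart from the other DNA-repair members and was 2.11-fold higher, from a dim signal. Parp8 was 2.995-fold higher, also from a dim signal. Over the 15022 named genes that both arrays put well above background, 687 or 4.57% were 2-fold or more higher and 268 or 1.78% 2-fold or more lower, against 8 and 0 of the 10 members. Because the members were picked for this contrast, these counts and all member values below describe the 2 arrays and carry no test, and 1 array per group gives no spread between cultures.

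Signals below are the intensities of the scanner software after its background subtraction, each with the error that the software itself estimated for that spot, and were not scaled between arrays. A difference is the log2 level on the miR-122 array minus that on the PBS array, after the 75th percentile of each array was subtracted, and a fold is computed from that difference. The 75th percentile was lower on the miR-122 array by a log2 difference of -0.28, so folds of higher genes exceed the ratio of the printed signals. The software's errors gave a log2 error of 0.20 to 0.24 on the member differences. Different probes of the same gene, over 3575 genes with several probes, differed with a pooled standard deviation of 0.30. These errors cover measurement on an array and not variation between cultures.

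Parp9, Dtx3l and Parp14 lie next to each other on mouse chromosome 16. Parp9 encodes a macrodomain protein that binds ADP-ribose and forms a complex with Dtx3l. Its probe gave 5107 ± 511 with PBS and 10414 ± 1041 with miR-122. Dtx3l, whose product attaches ubiquitin to histones and other proteins, was the 1 member with more than 1 probe. The brighter probe gave 1585 ± 159 with PBS and 3612 ± 361 with miR-122. The dimmer probe gave 36.2 ± 4.32 and 86.8 ± 9.09 in the same order. Both probes were higher on the miR-122 array by amounts that lay closer together than the spread between probes, with differences of 1.46 and 1.54. With normexp, a background correction that adds an offset to all intensities and so shrinks the differences of dim probes, the dimmer one was 1.74-fold higher. The difference of Parp9 was 1.30, or 2.47-fold, and that of the brighter Dtx3l probe corresponds to 2.76-fold. These 2 genes, whose products work together, had the smallest differences of the interferon-linked members with the scaling used, though with normexp Parp11 lay just below Dtx3l, and they lay closer together than the spread between probes.

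Parp14 encodes a large enzyme with several macrodomains that was first studied as a cofactor of the transcription factor STAT6 and is also needed for full interferon responses in macrophages. Its signal was 6464 ± 646 with PBS and 20917 ± 2092 with miR-122. The difference was 1.97, or 3.92-fold, and 126 of the 15022 genes had a larger positive difference. Within a list of genes for interferon signalling, those with the differences closest to Parp14 over these 2 arrays were Irf1 at 2.15, Usp18 at 2.21 and Irf7 at 2.30. With 2 arrays, likeness of pattern amounts to a single difference, so this is a weak measure.

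Parp10, Parp11 and Parp12 lie elsewhere in the genome, Parp10 on chromosome 15 and the others on chromosome 6. Parp10 encodes a mono-ADP-ribosyltransferase with ubiquitin-binding motifs. Its probe gave 3614 ± 361 with PBS and 9718 ± 972 with miR-122, a difference of 1.70 or 3.26-fold. Parp12 encodes a zinc-finger enzyme that blocks the replication of several RNA viruses. It had signals of 1306 ± 131 and 3734 ± 373 in the same order, and a difference of 1.79 or 3.46-fold. Parp11, an enzyme of the nuclear envelope that has been linked to control of the interferon receptor, had the highest difference of the 10 members. Its signals were 53.4 ± 5.83 with PBS and 225 ± 22.6 with miR-122, a difference of 2.35 or 5.09-fold, and 80 genes had a larger positive one. Parp11 was also dim on the PBS array, and with normexp its fold was 2.88. With normexp the highest difference among the members was that of Parp14, at 3.96-fold. The order of Parp11 and Parp14 therefore changed with the background correction.

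**Figure D1:**
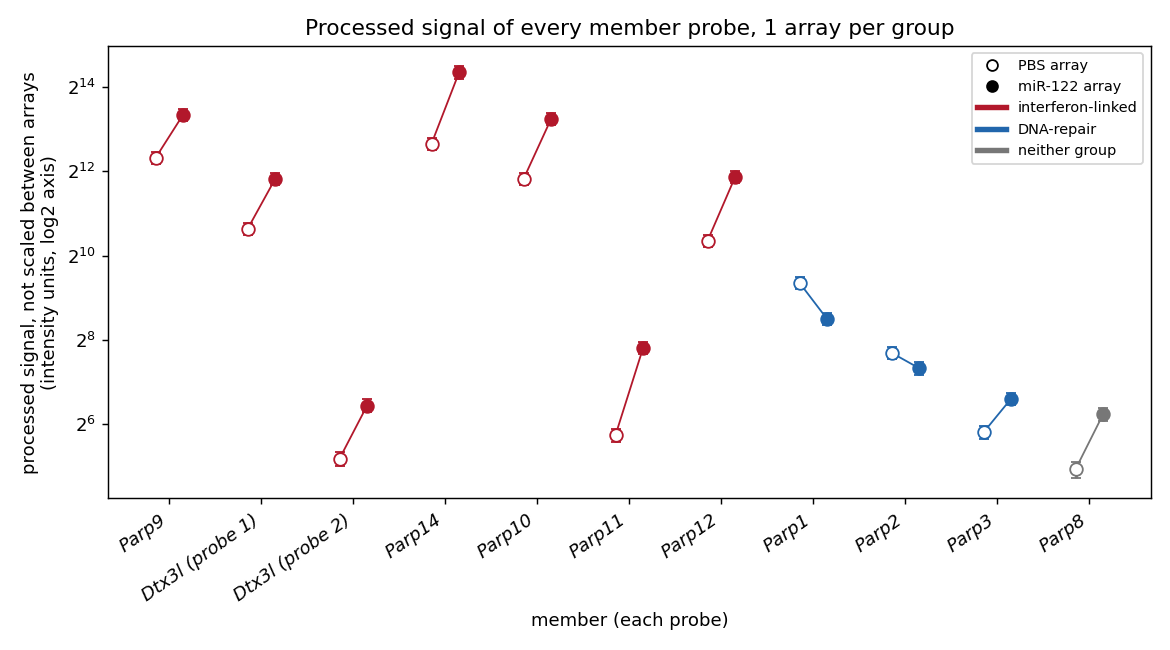
Processed signal of every member probe on the PBS array (open circles) and the miR-122 array (filled circles), in intensity units on a log2 axis, with the error estimated by the scanner software as bars. All interferon-linked probes (red) rise from left to right, as from 6464 to 20917 for Parp14, while Parp1 and Parp2 (blue) go down. The heights of different probes are not comparable, since probes differ in brightness.

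DNA around the start sites was looked at because interferon-linked members on different chromosomes were higher together. The RefSeq promoter table, build GRCm38.p6, held 8 windows for 7 members and none for Parp9, Parp10 and Parp14. Each window spans 250 bases before to 50 bases after a start site. Letters of 4 motifs were searched on both strands. The core of the interferon-stimulated response element (ISRE), a site of response to type I interferon, was taken as a pair of GAAA blocks separated by 2 unspecified bases, and 3.44% of all 32851 windows hold it. The gamma-activated site (GAS), a site of response to interferon gamma, was TTC and GAA separated by 3 unspecified bases, held by 8.30%. An E2F motif, TTT and CGC with 2 bases between them that are each C or G, was in 2.26% and a loose kappaB motif, GGG and CC with 5 unspecified bases between them, in 50.8%. The 3 windows of interferon-linked members below are shown because they carry this comparison, with ISRE and GAS letters in capitals.

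Parp11, chr6:127446590-127446889, plus strand: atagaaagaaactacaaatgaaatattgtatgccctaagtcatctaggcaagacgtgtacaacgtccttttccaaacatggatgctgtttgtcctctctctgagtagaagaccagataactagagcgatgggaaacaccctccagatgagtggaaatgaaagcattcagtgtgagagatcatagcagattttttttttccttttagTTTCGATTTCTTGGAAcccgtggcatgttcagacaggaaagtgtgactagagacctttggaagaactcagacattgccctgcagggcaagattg
Dtx3l, chr16:35938978-35939277, minus strand: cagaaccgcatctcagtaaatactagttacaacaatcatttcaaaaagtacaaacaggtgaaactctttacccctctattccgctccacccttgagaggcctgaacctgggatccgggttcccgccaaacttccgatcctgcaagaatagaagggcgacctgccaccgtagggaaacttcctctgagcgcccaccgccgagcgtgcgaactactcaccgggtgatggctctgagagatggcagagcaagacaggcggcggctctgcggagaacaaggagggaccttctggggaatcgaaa
Parp12, chr6:39118300-39118599, minus strand: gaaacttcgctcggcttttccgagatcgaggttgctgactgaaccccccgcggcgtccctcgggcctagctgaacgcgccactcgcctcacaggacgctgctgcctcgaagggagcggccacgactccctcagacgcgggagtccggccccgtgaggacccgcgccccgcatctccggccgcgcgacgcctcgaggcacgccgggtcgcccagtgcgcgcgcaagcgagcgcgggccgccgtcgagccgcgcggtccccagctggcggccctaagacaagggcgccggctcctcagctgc

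The upstream window of Parp11 held 1 ISRE core, on the minus strand, which begins 44 bases before the start site, and 1 GAS motif that begins 37 bases before it. The matches overlap and form the single capital run in the sequence above. The windows of Dtx3l and Parp12 and the other window of Parp11 held neither motif, nor did those of Parp1, Parp2, Parp3 and Parp8. No member window held the E2F letters, and the kappaB letters were present in windows of Parp1, Parp3, Parp8, Parp11 and Parp12. A match is only a run of letters, and its absence says nothing of sites outside 300 bases or of looser sites inside them.

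The neighbours of Parp14, Dtx3l and Parp9 on chromosome 16 that both arrays measured had smaller differences. Of the 5 nearest measured genes on each side, 8 were well above background on both arrays, and 0 of them were 2-fold or more higher or lower. Over all genes 4.57% were higher and 1.78% lower by that much, so 0 of 8 is near those shares. The differences of the 8 ran from -0.29 to 0.23, with a median of -0.11. Hspbap1, next to Parp14, had signals of 25.6 and 24.6 on the PBS and miR-122 arrays and a difference of 0.22. Kpna1, which encodes an importin and lies next to Parp9, had signals of 777 and 593 and a difference of -0.11. Wdr5b, Fam162a, Ccdc58 and Stfa2l1 beyond it had differences of -0.25, -0.11, -0.29 and -0.11, and Slc49a4 and Pdia5 on the other side 0.20 and 0.23. Sec22a was well above background on the miR-122 array only and was at least 1.84-fold higher there, so a difference of the size seen in Parp9 is possible for it. Sema5b passed that mark only with PBS and was at least 1.22-fold lower with miR-122.

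**Figure D2:**
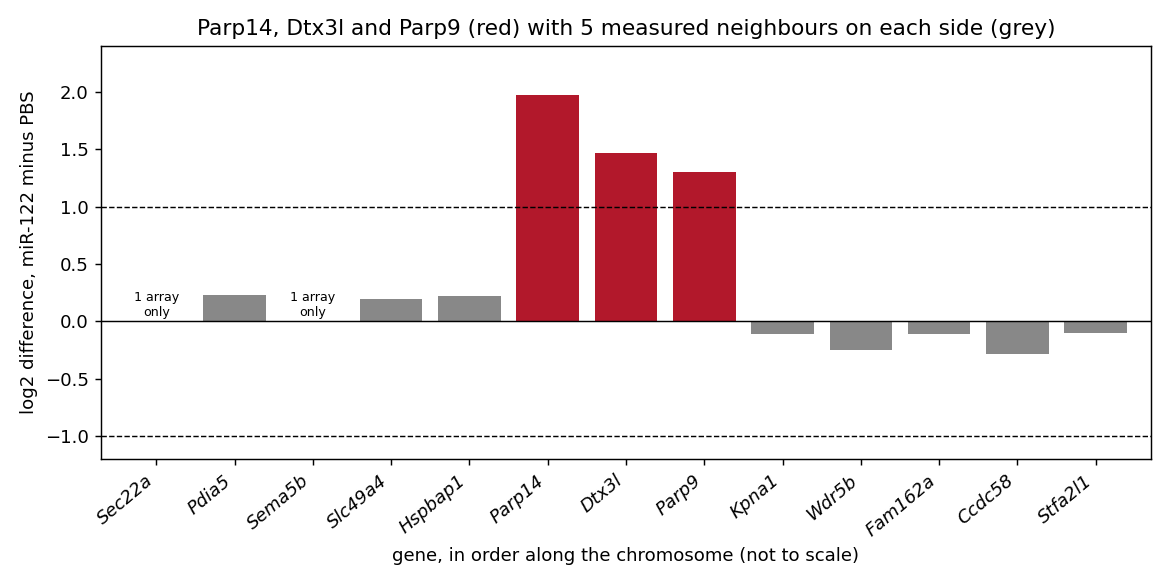
Log2 difference, miR-122 minus PBS, for Parp14, Dtx3l and Parp9 (red bars) and the 5 nearest measured genes on each side (grey bars), in chromosomal order and not to scale; dashed lines mark 2-fold. The 3 members stand at 1.97, 1.46 and 1.30, and the 8 neighbours measured on both arrays between -0.29 and 0.23; Sec22a and Sema5b, well above background on 1 array only, have no bar.

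The DNA-repair members did not move as a group. Parp1, the most active PARP in most cells and the first to bind a broken strand, had signals of 654 ± 65.4 with PBS and 360.3 ± 36.1 with miR-122. Its difference was -0.58, or 1.5-fold lower, and 902 of the 15022 genes had a lower one. Parp2, its close relative that backs up strand-break repair, gave 207 ± 20.9 and 160.5 ± 16.3, a difference of -0.09 that is smaller than the software's error. Parp1 thus lay below Parp2 on this scale. The spread between probes is that of a single difference, so it does not give the error of this gap between 2 genes. Parp3, which takes part in the joining of double-strand breaks, was higher on the miR-122 array, at 55.8 ± 6.11 with PBS and 97.2 ± 10.1 with it. Its difference of 1.08 was just past the 2-fold size and was under it with 5 of the 9 other ways of processing the arrays, down to 1.54-fold with normexp. The remaining ways were the stricter filter for dim probes, no filter, a mean of all probes and keeping flagged spots. They left the difference at 1.08. Parp3 had no other probe and its probe was well above background on both arrays, so the filters and the mean could not change it. Each change of scaling or background correction, and the authors' values, put Parp3 under 2-fold.

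The interferon-linked members had a median difference of 1.75 and the DNA-repair members one of -0.09, so the medians were 1.84 apart, or 3.57-fold. The median over all 15022 genes was 0.09. The groups did not overlap, but the lowest interferon-linked difference, that of Parp9, exceeded the highest DNA-repair difference, that of Parp3, by 0.23, which is less than the spread between probes of a gene. Parp1 and Parp2 lay further below. No test of this comparison was made, since the grouping was proposed with these values known.

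Parp8, an enzyme whose targets in macrophages are little known, gave 30.4 ± 4.0 with PBS and 75.2 ± 8.07 with miR-122. The difference of 1.58, or 2.995-fold, placed it among the interferon-linked members in size. With normexp it was 1.72-fold higher, so its size depended on the background correction. When the genes were divided into 10 bins by mean level, 2-fold or more higher were 4.66% in the bin of Parp8 and 3.86% in the bin of Parp3 and Parp11. The corresponding shares were 5.99% in the bin of Dtx3l and Parp12 and 8.12% in the top bin, which held Parp9, Parp10 and Parp14.

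**Figure D3:**
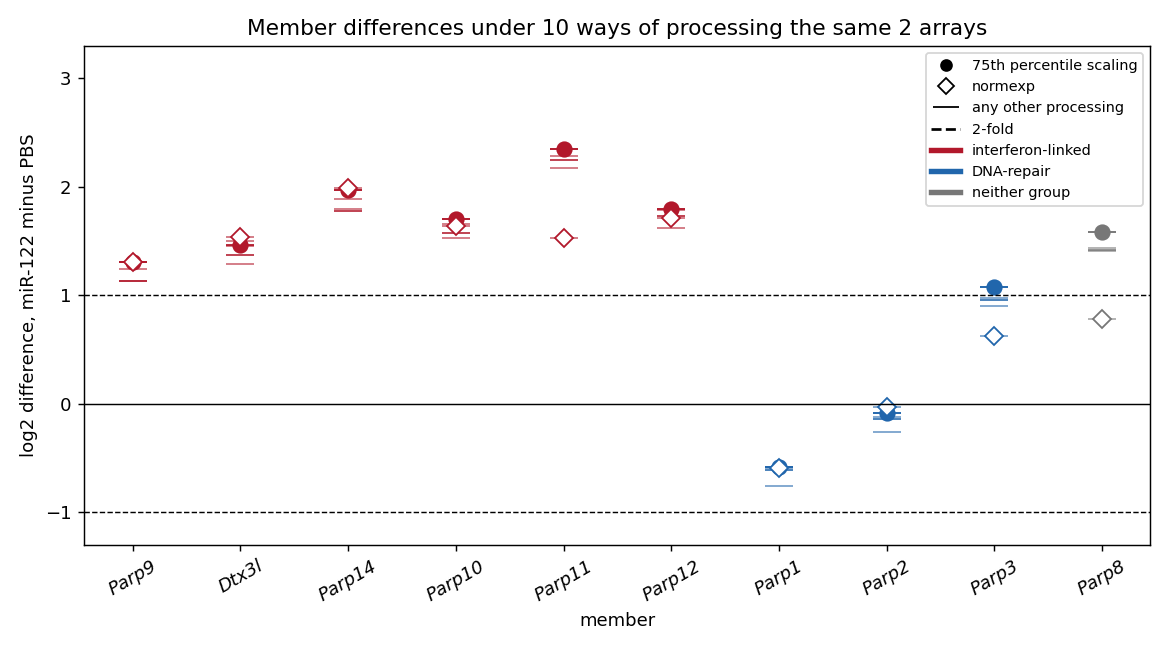
Log2 difference, miR-122 minus PBS, of each member under 10 ways of processing the same arrays: filled circles for 75th percentile scaling, open diamonds for normexp and dashes for the others, with dashed lines at 2-fold. All interferon-linked members (red) stay above the upper line, and Parp1 and Parp2 (blue) stay below 0. Parp3, Parp8 and Parp11 have their lowest values, 0.62, 0.78 and 1.53, with normexp. The stricter filter for dim probes and no filter left all values unchanged.

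Over all 15022 genes 4.57% were 2-fold or more higher and 1.78% 2-fold or more lower. In the rest of the PARP family, measured for comparison, 1 of 7 further genes was 2-fold or more higher. None of the 7 was 2-fold or more lower, and the median difference was 0.27. The 1 higher gene was Zc3hav1, which encodes the antiviral protein ZAP, a PARP family member without enzyme activity that binds viral RNA. It gave 148 with PBS and 331 with miR-122, a difference of 1.43 or 2.70-fold. Tiparp, a target of the aryl hydrocarbon receptor that restrains it in turn, came next, and its probes differed by 0.81 and 0.92. Parp4, the enzyme of vault particles, was higher by 0.47 and 0.49 with its probes. Parp16, an enzyme of the endoplasmic reticulum, was lower, with differences of -0.33 and -0.15. The tankyrase genes Tnks and Tnks2, regulators of telomeres and Wnt signalling, had differences of 0.03 and 0.27, with 0.17 for the other Tnks2 probe. The probes of Parp6 differed in sign, at -0.05 and 0.24. Of the relatives of Dtx3l in the Deltex family, 0 of 4 were 2-fold higher or lower, which is near the shares over all genes. Dtx2 had a difference of 0.40, Dtx3 of 0.03, Dtx1 of -0.14 and Dtx4 of -0.63.

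All 13 genes that remove, read or support ADP-ribosylation were well above background on both arrays. None was 2-fold or more higher or lower, and the median was -0.16. A count of 0 in so short a list is near the shares over all genes, 4.57% higher and 1.78% lower. The genes furthest from 0 were Macrod2, a hydrolase of mono-ADP-ribose, at -0.78, and Rnf146, a ubiquitin ligase that recognises poly(ADP-ribose), at 0.47. Chd1l, a chromatin remodeller activated by poly(ADP-ribose), was at -0.31 and the hydrolase gene Adprhl2 at -0.27. Of 19 measured genes that make or use NAD+, the substrate of all PARP enzymes, 0 were 2-fold or more higher and 1 lower by that much, with a median of 0.11 whose sign turned under other scalings. Nadk2, the mitochondrial NAD kinase, was the 1 lower gene, at -1.05, and was under 2-fold with normexp. Nampt, the rate-limiting enzyme of NAD+ salvage, gave 4406 ± 441 with PBS and 6793 ± 679 with miR-122, a difference of 0.90. Nnmt, which consumes nicotinamide, was at 0.68, and Nmnat3 was at -0.57.

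In both lists of partners of the DNA-repair members below, most differences were negative and most genes were under 2-fold. Over all 15022 genes 9055 differences were positive and 5967 negative. Of those genes 4.57% were 2-fold or more higher and 1.78% 2-fold or more lower. No test of either list was made. Of 21 measured genes of single-strand break and base excision repair, 15 had negative differences, 1 was 2-fold or more lower and 1 higher by that much, with a median of -0.26. The glycosylase gene Neil3 had a difference of -2.30, the flap nuclease gene Fen1 of -0.91 and the endonuclease gene Apex1 of -0.90, while the uracil glycosylase gene Ung had one of 1.07 and was under 2-fold with other scalings. Of 15 measured genes of double-strand break repair, 13 had negative differences, 2 were 2-fold or more lower and 0 higher by that much, with a median of -0.27. Brca2, a gene of homologous recombination, was among the lower ones, at -1.60. Prkdc, a kinase of end joining, was at -0.81 and Palb2 at -0.71. The difference of Parp1 lay within the range of these lists, and that of Parp3 lay above all genes of the double-strand break list, whose highest difference was 0.22.

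A list of genes for interferon signalling, which also holds the feedback inhibitor gene Usp18, was higher in part. Of 14 measured genes in that list, 8 were 2-fold or more higher and 0 lower by that much, and the median was 1.1. With median scaling or normexp 6 were, and the median was 0.93 or 0.91. Ifnb1, which encodes interferon beta, had a difference of 7.03, from 29.9 ± 3.76 to 3227 ± 323. The transcription factor genes Irf7 and Irf1 were at 2.30 and 2.15, and Usp18, a feedback inhibitor at the receptor, was at 2.21. Stat2 and Irf9, named after their values were seen, were at 1.60 and 0.74. The receptor genes Ifnar1 and Ifnar2, outside the naming rule as well, differed by 0.21 and -0.12. The differences of the interferon-linked members ran from 1.30 to 2.35. Those of the interferon signalling list ran from -0.12 to 7.03, a range so wide that it says little about likeness.

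**Figure D4:**
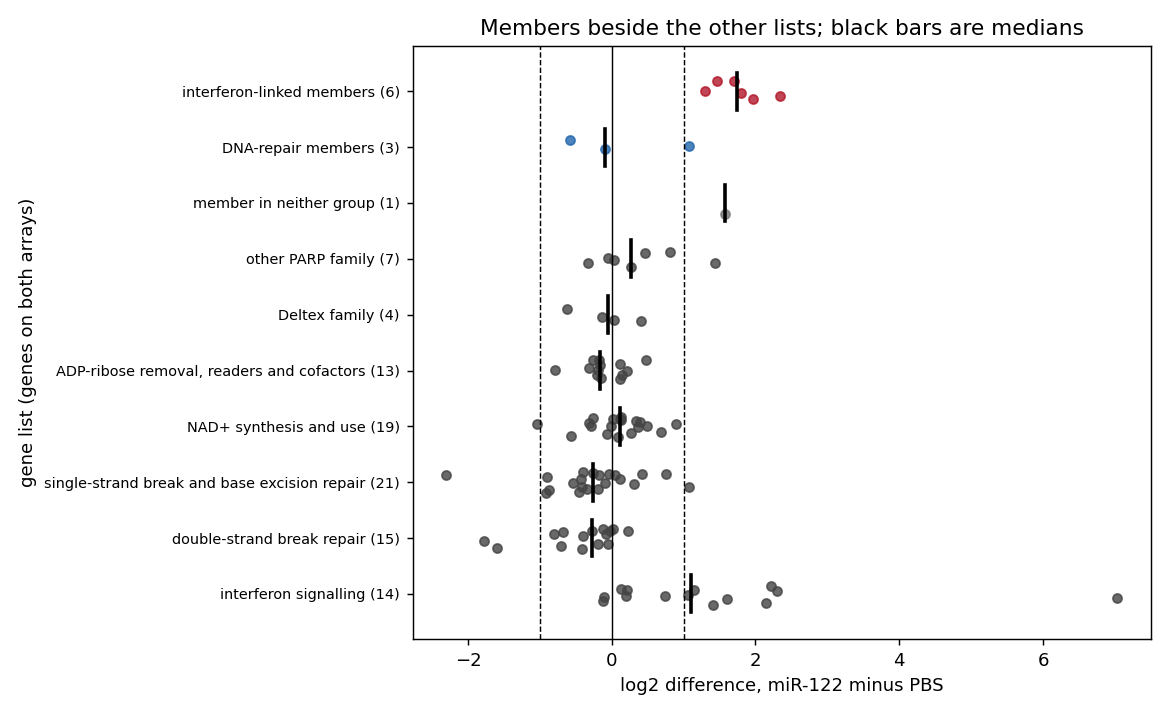
Log2 difference, miR-122 minus PBS, of each gene (points) in the member groups and the other lists, with the number of genes measured on both arrays in brackets, black bars at the median and dashed lines at 2-fold. The interferon-linked members lie between 1.30 and 2.35, the interferon signalling list has a median of 1.1, and both repair lists have medians below 0, at -0.26 and -0.27.

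Both arrays were alike in the share of spots well above background, 71.9% with PBS and 70.1% on the miR-122 array. The share of 2-fold genes that were higher was 71.9% with the scaling used, 50.8% with median scaling and 59.9% with quantile normalization, and the median difference of all genes was -0.08 and -0.03 with these. Of 7 macrophage markers with a probe, 6 were well above background on both arrays, 4 of these had negative differences, and the median was -0.64. Itgam was at -0.85, Csf1r at -0.78 (46202 for PBS and 22246 for miR-122), Lyz2 at -0.71 and Adgre1 at -0.58, while Spi1 was at 0.58 and Cd14 at 0.25. Mertk was not above background on either array. Lower levels of such genes in fewer cells and in less RNA per cell cannot be told apart. The summed signal of the 7 was 86715 with PBS and 57581 with miR-122. This sum and those below were not scaled between arrays. It rests largely on Csf1r, given above, and on Cd14, at 31514 with PBS and 30847 with miR-122. Of 21 measured markers of dendritic, T, B, fibroblast and liver cells, 11 were well above background on both arrays and 1 was 2-fold or more higher, the dendritic cell gene Zbtb46, from 26.1 to 184. Its list of 4 summed to 97.1 and 259, with Clec9a and Xcr1 not above background, and its part in the member differences was not tested. The summed signals of the other lists were 1041 and 858 for T cell, 76.8 and 84.5 for B cell, 83.8 and 92.4 for fibroblast, and 88.0 and 65.0 for hepatocyte markers.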

How the data were processed

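Cy3-labelled total RNA of RAW246.1 cells was hybridised to 1 Agilent array per group, and groups were taken from the source name in the labels. The deposited scanner files hold spot intensities, per the file headers from version 11.0.1.1 of Agilent Feature Extraction: the background-subtracted and detrended signal, its error, and median spot and background intensities. The deposited series matrix holds log2 values by the authors, with a median of 5.16 in both columns and a normalization not given in the sources used here. Each column correlated with its own array at 0.997 and with the other at 0.985, across probes.

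Control spots and flagged spots (145 with PBS, 196 with miR-122) were left out. Spots of a probe were averaged as log2 signals, and the 75th percentile of each array was subtracted. Accessions were matched without versions to RefSeq (GRCm38.p6), naming 27234 of 39429 probes. Among the probes that 1 or both arrays put well above background, the brightest represented its gene. A bound sets the brighter array against the lowest signal that counted as well above background in the dimmer one, or the probe's own if higher. R 4.3.3 with limma 3.58.1 and Python 3.11.15 were used, and the counting was tested on simulated data. No test between groups was possible.

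The members and lists were chosen with earlier results of these data known. Named were all members, the cluster's neighbours, up to 4 genes of each list with the largest absolute difference and any gene past a 2-fold bound; some genes under this rule are not reported here. Alternatives were median, quantile and loess (span 0.3) scaling, normexp (offset 50), the authors' values, stricter and no filters for dim probes, a mean of all probes, keeping flagged spots, and 1.5-fold or 4-fold as threshold.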

Additional observations from a re-analysis of the deposited data

How the results depend on the processing

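All 6 interferon-linked members were 2-fold or more higher under each of the 10 ways of processing the arrays. With a threshold of 4-fold 1 was, namely Parp11. Not all of these ways could change a member. The stricter filter for dim probes and no filter left all member values unchanged, because all 11 probes were well above background on both arrays. A mean of all probes could change only Dtx3l. Keeping flagged spots hardly moved any member, as from 1.3043 to 1.3036 for Parp9. The authors' values nearly repeated quantile normalization, with 1.13 for Parp9 in both. The 1 DNA-repair member past 2-fold, Parp3, was under it with median scaling, quantile normalization, loess, normexp, the authors' values and a 4-fold threshold, which each left 0. The medians of both groups and the gap between them moved by less than the spread between probes. Parp3, Parp8 and Parp11 moved by more with normexp, to 0.62, 0.78 and 1.53. Over all genes, median scaling gave 456 genes 2-fold or more lower against 268, normexp gave 388 higher and 143 lower, and no filter on dim probes gave 1358 higher and 451 lower. A threshold of 1.5-fold gave 1814 genes higher and 900 lower. In the lists, for which alternatives were added after the data were seen, 4 genes of single-strand break repair were 2-fold or more lower with median scaling and 2 with quantile normalization or the authors' values, against 1. The Deltex median was 0.10 with normexp and the NAD+ median -0.07 with median scaling. No paired analysis was possible because each group held 1 array. Dim signals limit Parp3, Parp8 and Parp11, and the number of arrays limits every value.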

Other observations

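Genes next to the members outside chromosome 16 were looked at for the same reason as the neighbours of Parp14, Dtx3l and Parp9. Of the 28 nearest measured genes, 2 on each side of 7 members, 23 were well above background on both arrays, 2 were 2-fold or more higher and 0 lower by that much, with a median difference of 0.12. Over all genes 4.57% were 2-fold or more higher and 1.78% lower by that much. The 2 higher neighbours were dim on the PBS array and were chosen after their values were seen. Ccnd2, a G1 cyclin gene beside Parp11, gave 29.0 with PBS and 72.6 with miR-122, a difference of 1.60. Tbxas1, the thromboxane synthase gene beside Parp12, gave 20.2 and 44.9, a difference of 1.43. Grina, beside Parp10, had a difference of 0.93, and Plec on its other side one of -0.34. The neighbours of Parp3 and Parp8 measured on both arrays had differences between -0.39 and 0.50.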
